A study of Mus musculus with 17 samples.

Results

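The 9 genes of glucose and lactate handling, Ldha, Ldhb, Slc16a1, Pdk1, Pdk2, Hk1, Hk2, Gpi1 and Pfkp, were followed across pancreatic endocrine cells of STZ-treated, postnatal and adult control mice. They were taken by symbol from a UMI table of 40824 genes, and all 9 had a row. Streptozotocin (STZ) is a glucose analogue that enters beta cells through the transporter GLUT2 and kills them. The question was whether genes that beta cells normally keep low come back in the beta cells left after STZ or are still on in young ones.

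All mice carried Ngn3-Cre; Rosa-RFP, in which Cre under the control of Ngn3, a gene of endocrine progenitors, switches on a red fluorescent protein in their progeny, and RFP-positive pancreatic cells were sorted and picked singly. Adult males received STZ at 200 mg/kg at an age of 2 months and carried insulin implants until collection at day 6, day 12 (2 libraries), day 30, day 42, month 2, month 5 or month 9, which gave 8 libraries. The month 9 mice had implants only intermittently in the last 2 months. Another 2 libraries came from STZ mice at month 2 that had no implants. Untreated pups of P3, P12 (2 libraries) and P21, whose sex the labels do not give, made up 4 postnatal libraries. Adult control males of matching age, given citrate buffer, provided 3 libraries, and no implants are recorded for them, so that STZ and implant cannot be told apart in that comparison. No time of collection is given for each control library, so age and STZ cannot be told apart at the late times either. The labels do not say whether libraries of a group came from separate mice, and p-values therefore measure the spread between libraries.

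Glycolysis turns glucose into pyruvate. In most cells low-Km hexokinases (Hk1, Hk2) start it, and lactate dehydrogenase (Ldha for the A subunit, Ldhb for the B subunit) and the monocarboxylate transporter MCT1 (Slc16a1) turn pyruvate into lactate and carry it across the membrane. Adult beta cells use glucokinase instead and keep Ldha, Slc16a1, Hk1 and Hk2 very low, which ties insulin release to blood glucose and to mitochondrial oxidation; such genes are called disallowed. Gpi1 encodes glucose-6-phosphate isomerase and Pfkp the platelet form of phosphofructokinase, both early steps of glycolysis. Pdk1 and Pdk2 encode kinases that switch off pyruvate dehydrogenase and so keep pyruvate out of the mitochondrial cycle.

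The table held 2999 cells in 17 libraries, with 22 to 295 cells and 1420536 to 26298456 UMIs per library. Clustering without the 9 genes gave 1003 beta, 569 alpha, 256 delta and 186 PP cells, named by markers. Beta cells numbered 8 to 69 per STZ library with implants, 4 and 9 without implants, 61 to 147 per postnatal library and 20 to 206 per control library. Nearly all beta cells of STZ mice lay in a cluster with Chgb among its leading genes that held 22 of the control beta cells, all 147 P3 beta cells lay in a cluster of their own, and the control cells lay mainly in a pair of others (264 and 76 cells). The mean log2 fold of the beta markers over all other cells was 0.209 in the STZ cluster and 0.804 in the P3 cluster. It was 1.965 and 1.782 in the main control clusters, so STZ and P3 beta cells were named on weaker marker scores. Levels are given as counts per 1000000 UMIs (CPM), from the UMIs summed over the beta cells of a library.

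Ldha, Slc16a1, Hk1 and Hk2 were counted at 0 to 5.20 CPM in the beta cells left after STZ. A count of 3 UMIs, the limit that a count of 0 allows, equals 7.58 CPM at month 2 with implants and 7.63 and 5.39 CPM without implants. Ldha measured 0 to 5.20 CPM in the 8 STZ libraries with implants, with a median of 0.881 CPM, against 1.11, 0.122 and 0.768 CPM in controls. Only 2 of the 8 STZ libraries, day 12 replicate 1 with 5.20 CPM and month 5 with 3.13 CPM, lay above all controls, and 2 lay below them. Summed over libraries, 26 Ldha UMIs were counted among 18080478 in STZ beta cells and 17 among 22987060 in control beta cells, a ratio of 1.94 with a 95% interval of 1.02 to 3.82 that covers counting error only. With 1 library left out, a setting chosen after seeing the data, the ratio rested on single libraries: it was 1.04 (counting interval 0.427 to 2.41) without month 5, which holds 16 of the 26 UMIs, 6.83 (1.71 to 59.4) without control 1, which holds 15 of the 17, and 1.33 (0.687 to 2.65) without control 2.

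Slc16a1, the lactate and pyruvate carrier, was counted in 3 of 8 STZ libraries, with 1.3 CPM at day 12 (replicate 1), 1.09 CPM at day 30 and 1.76 CPM at day 42. That was 5 UMIs in all STZ beta cells with implants, against 1 UMI in all control beta cells, a ratio of 6.36 (counting interval 0.711 to 301). Hk2 had 10 UMIs in STZ beta cells, from day 6, day 12 replicate 1 and month 5 at 1.33, 1.3 and 1.37 CPM, against 2 UMIs in control beta cells, where it measured 0, 0.122 and 0.768 CPM, a ratio of 6.36 (counting interval 1.35 to 59.7). Without month 5, which holds 7 of the 10 UMIs, that ratio was 2.66 (0.305 to 31.8), without control 1 it was 2.63 (0.560 to 24.7), and without control 3 it was 12 (1.71 to 520). Hk1 had 1 UMI in the 8 STZ libraries, at month 9, against 6 UMIs in controls at 0.222, 0.366 and 0 CPM. In the 2 libraries without implants Ldha, Slc16a1 and Hk2 had no UMI and Hk1 measured 2.54 and 0 CPM.

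**Figure D1:**
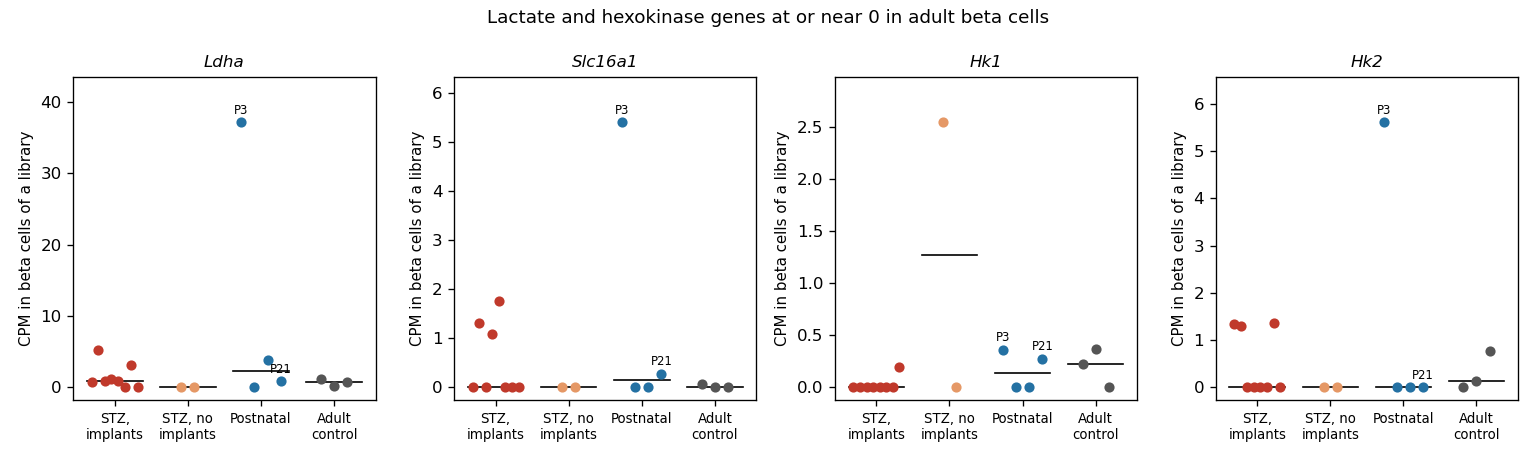
Ldha, Slc16a1, Hk1 and Hk2 in beta cells, in CPM of each library's beta-cell sum on linear axes, for STZ with implants (8 libraries), STZ without implants (2), postnatal (4) and adult control (3); each point is a library and each black bar the median of its group. The P3 library stands above all others for Ldha (37.2 CPM), Slc16a1 (5.40 CPM) and Hk2 (5.62 CPM), while STZ libraries lie between 0 and 5.20 CPM for Ldha.

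These 4 genes had too few counts for the test of STZ with implants against control. When the filter on low counts was dropped, none of them was called: edgeR's quasi-likelihood test gave Ldha a log2 difference of 1.14 ± 1.31 (SE) with a Benjamini-Hochberg adjusted p of 0.758, and the adjusted p was 0.410 for Slc16a1, 0.579 for Hk1 and 0.798 for Hk2. A count of 3 UMIs equals 0.587 CPM at month 5 and 0.592 CPM at month 9, but 3.90 CPM at day 12 replicate 1 and 7.58 CPM at month 2. The smallest change that the test could detect in these genes was not measured.

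Of the glycolytic genes that adult beta cells do express, Gpi1 and Pdk1 rose in STZ beta cells and Ldhb fell. Gpi1 measured 167 to 254 CPM in the 8 STZ libraries, with a median of 202 CPM, against 81.8, 76.8 and 72.9 CPM in controls. Pdk1 measured 45.8 to 81.6 CPM in STZ libraries, with a median of 58.9 CPM, against 20.8, 22.1 and 21.5 CPM in controls. All 8 STZ libraries lay above all 3 controls for both genes. Ldhb, whose subunit favours the use of lactate, measured 14.1 to 32.8 CPM in STZ libraries, with a median of 20.2 CPM, against 50.6, 46.0 and 55.3 CPM in controls, and every STZ library lay below every control. For these genes and for later groups without overlap, the share of all genes that separate in this way is not given. Lack of overlap is therefore a description.

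The fitted difference was 1.44 ± 0.20 (SE, log2) for Gpi1, or 2.7-fold, with an adjusted p of 0.000251 in edgeR's quasi-likelihood test. For Pdk1 it was 1.53 ± 0.23, or 2.89-fold (adjusted p = 0.000489), and for Ldhb -1.26 ± 0.28, or 2.39-fold lower (adjusted p = 0.0150). Of the 9 genes 5 were tested, and these 3 were called, where 2.90% of the 10249 genes tested were called, 1.74% higher and 1.16% lower. Pdk2, which measured 14.6 to 23.8 CPM in STZ libraries (median 16.2 CPM) and 18.2, 11.8 and 19.2 CPM in controls, had a difference of 0.12 ± 0.31 (adjusted p = 0.955). Pfkp measured 11.7 to 25.3 CPM in STZ libraries (median 16.5 CPM) and 9.12, 15.6 and 15.4 CPM in controls, with a difference of 0.42 ± 0.33 (adjusted p = 0.755). For Pdk2 and Pfkp the groups overlapped.

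**Figure D2:**
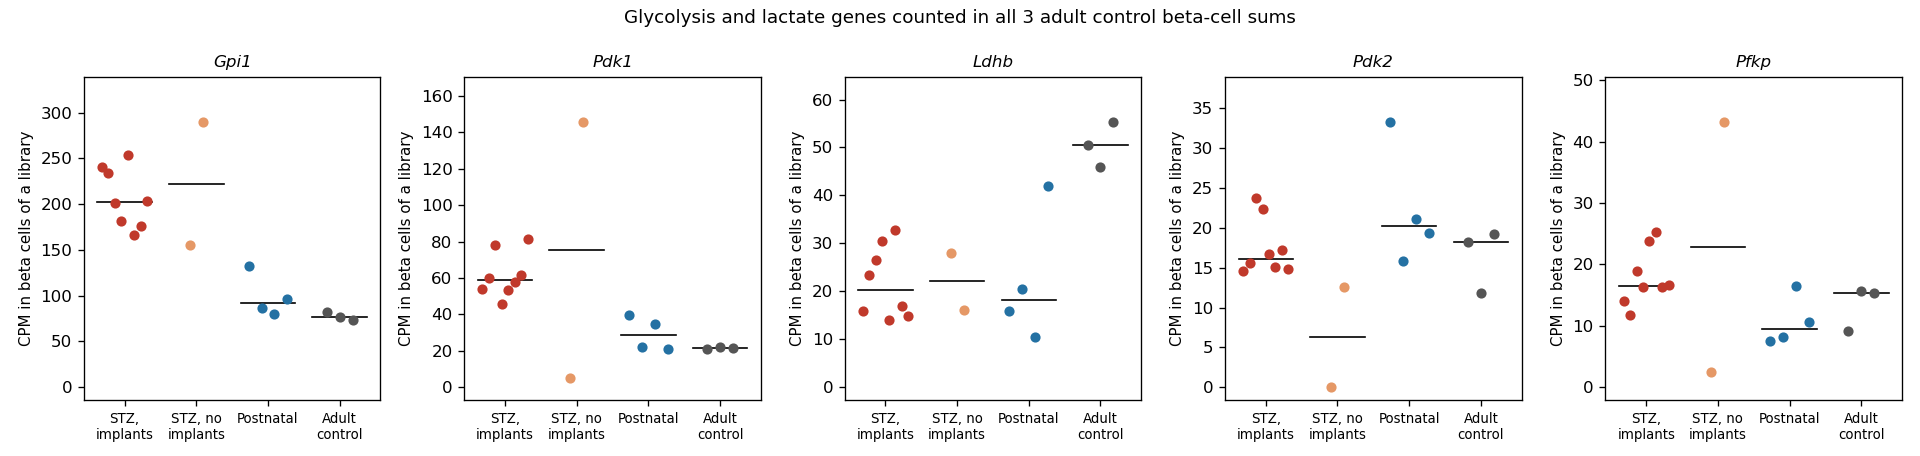
Gpi1, Pdk1, Ldhb, Pdk2 and Pfkp in beta cells, in CPM of each library's beta-cell sum on linear axes, in the same order of groups from STZ with implants to adult control; each point is a library and each black bar the median of its group. The 8 STZ libraries with implants lie above all controls for Gpi1 and Pdk1 and below all controls for Ldhb.

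Ldhb was no longer called when any 1 of the 3 control libraries was left out, with an adjusted p of 0.0961, 0.0546 and 0.10 without control 1, 2 and 3. No label names a sequencing run, and a run was taken here as a prefix shared by the raw read file names of cells. Among the libraries of the run that also held control cells (STZ day 6 and day 30, in part, and month 2, against control 2) the difference was 1.39 for Gpi1, 1.27 for Pdk1 and -0.79 for Ldhb. This fit left 1 control library, so only the size of the difference is given. Among the libraries outside that run the difference was 1.47, 1.66 and -1.50, all called. In beta-cell sums the 6 PP markers together made 9197 to 31806 CPM in STZ libraries and 3058 to 4625 CPM in controls, with no overlap, the alpha markers 2237 to 12401 and 4480 to 9845 CPM, which overlapped, the 7 delta markers 2086 to 11789 and 1121 to 2310 CPM, the 14 acinar markers 20289 to 72611 and 10154 to 33256 CPM, and the 10 ductal markers 677 to 1586 and 629 to 799 CPM. Beta cells rich in such markers made up 17.4 to 55.6% of STZ beta cells and 3.40 to 20% of control ones, and the part of other cells' RNA in the differences was not tested. Without these cells Gpi1 differed by 1.36 (adjusted p = 0.00259) and Pdk1 by 1.87 (adjusted p = 0.000553), while Ldhb had an adjusted p of 0.0673.

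Taken group by group in 1 fit over all 17 libraries, the estimate for Gpi1 was above 0 at each time after STZ. It was called at day 12, with 234 and 201 CPM (difference 1.54 ± 0.30, adjusted p = 0.0135, where 0.765% of genes were called), and at day 42, with 254 CPM (1.78 ± 0.35, adjusted p = 0.0202, where 0.488% were called). It was also called at month 2 without implants, with 155 and 289 CPM (1.39 ± 0.30, adjusted p = 0.0168, where 2.69% were called). The differences at day 6, day 30, month 2, month 5 and month 9 were 1.56, 1.23, 1.09, 1.23 and 1.26 with adjusted p of 0.124 to 0.364. Of all genes 0.113% were called at day 6, 0.233% at day 30, 0.128% at month 2, 0.285% at month 5 and 0.630% at month 9, and a group with 1 library was assumed to vary like the replicated groups. At month 2, where 8 beta cells were left, the median of all genes was itself shifted by -0.39, as it was by -0.22 at month 2 without implants and -0.11 at day 42. When any 1 control was left out, no Gpi1 call by group was kept (adjusted p of 0.0514 to 0.10).

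Pdk1 differed from control by 1.09 at day 30 to 1.80 at month 9 in these single-group contrasts, and none was called. Without implants the 2 libraries gave 5.09 and 146 CPM of Pdk1, from 4 and 9 beta cells, one below and one above all controls. Ldhb measured 28.0 and 16.2 CPM there, both below all controls, with a difference of -1.39 ± 0.53 (adjusted p = 0.167).

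The other genes of the pathway were read from lists. Of 30 glycolysis enzymes and glucose transporters 21 were tested, 3 rose and 1 fell, where 2.90% of 10249 genes were called. The median difference was 0.26 against -0.0032 over all genes. Beside Gpi1, Pfkfb3, which makes the activator of phosphofructokinase, rose with a median of 9.18 CPM in STZ libraries and 0.976 CPM in controls (2.99 ± 0.61, adjusted p = 0.00814). Slc2a2, the gene of GLUT2, fell with a median of 62.0 CPM in STZ libraries and 524 CPM in controls (-3.00 ± 0.28, adjusted p = 4e-06). Slc2a2 was among the markers that named beta cells, so its values also describe how cells were grouped.

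Of 30 genes of pyruvate and lactate handling 23 were tested, 3 rose and 2 fell, with a median of 0.12, where 2.90% of 10249 genes were called. Bsg, the chaperone of lactate transporters, had a median of 1226 CPM in STZ libraries and 694 CPM in controls (0.72 ± 0.18, adjusted p = 0.0335). Fbp1, a gluconeogenic phosphatase, had 1.3 to 143 CPM in STZ libraries and 0 to 1.19 CPM in controls (5.34 ± 1.27, adjusted p = 0.0220). Pcx, which feeds pyruvate into the mitochondrial cycle as oxaloacetate, had 15.3 to 32.8 CPM in STZ libraries and 71.4 to 81.7 CPM in controls, with no overlap (-1.58 ± 0.24, adjusted p = 0.000699). Of the 9 NADH shuttle genes all 9 were tested and 0 were called (median 0.10). Of 22 disallowed genes 2 passed the filter, Oat (1.77, adjusted p = 0.272) and Cd302 (2.52, adjusted p = 0.249), and neither was called. In the fit of each group, where 2.69% of genes were called at month 2 without implants, Oat was called higher there, at 5.09 and 32.4 CPM against 1.22 to 3.84 CPM in controls. The lower value lies under the 7.63 CPM that 3 UMIs equal in that library. Of the 4 and 9 beta cells there, 75 and 66.7% were rich in other cells' markers, and the part of other cells' RNA was not tested. Of 24 targets of hypoxia-inducible factor 20 were tested and 2 rose, Pfkfb3 and Egln3 (3.89 ± 0.92, adjusted p = 0.0221), a hydroxylase that marks the factor for breakdown, with a median over the list of -0.16.

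**Figure D3:**
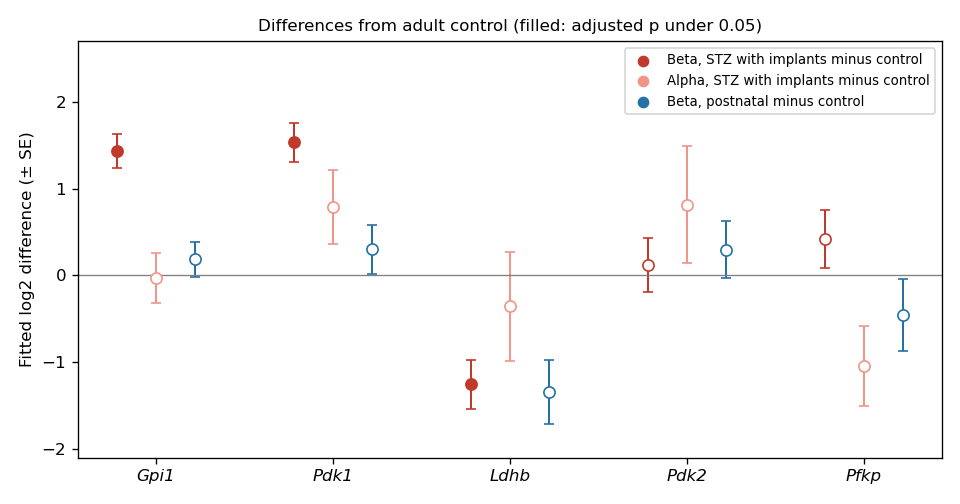
Fitted log2 differences from adult control for the 5 expressed genes, with bars of 1 SE, in beta cells of STZ mice with implants, alpha cells of the same mice, and postnatal beta cells; filled points have an adjusted p under 0.05. Gpi1 (1.44), Pdk1 (1.53) and Ldhb (-1.26) are filled in STZ beta cells, and no point is filled for alpha or postnatal beta cells.

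In postnatal beta cells, Ldha, Slc16a1 and Hk2 stood out at P3 alone among the 4 postnatal libraries. Ldha measured 37.2 CPM at P3, 0 and 3.79 CPM at P12 and 0.820 CPM at P21, against 1.11, 0.122 and 0.768 CPM in adult controls. Slc16a1 measured 5.40 CPM at P3, 0 and 0 CPM at P12 and 0.273 CPM at P21, against 0.0742, 0 and 0 CPM in controls. Hk2 measured 5.62 CPM at P3 and 0 CPM in the other 3 postnatal libraries, against 0, 0.122 and 0.768 CPM in controls. Hk1 did not share this pattern, with 0.360 CPM at P3, 0 and 0 CPM at P12 and 0.273 CPM at P21, against 0.222, 0.366 and 0 CPM in controls.

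At P3 516 Ldha UMIs were counted among 13886850, against 17 among 22987060 in controls, a ratio of 50.2 with a 95% counting interval of 31.1 to 86.9. For Slc16a1 75 UMIs stood against 1 in controls, a ratio of 124 (interval 21.6 to 4968), and for Hk2 78 UMIs against 2, a ratio of 64.6 (interval 17.3 to 542). With 1 control left out the ratio was 34.3 to 177 for Ldha, the highest without control 1, and 26.7 to 122 for Hk2, the lowest without control 1 and the highest without control 3. For Slc16a1 it was 79.9 without control 2, and without control 1 no control UMI was left, with a lower counting limit of 13.6. Ldha, Slc16a1 and Hk2 had too few counts to be tested in the pooled postnatal comparison. A fit by group can admit a gene through its P3 counts alone, so its p-values for these genes are descriptive. With 1 P3 library, the difference rests on a spread borrowed from the replicated groups. In edgeR's quasi-likelihood test it was 5.43 ± 1.35 for Ldha (adjusted p = 0.0598), 6.03 ± 2.01 for Slc16a1 (adjusted p = 0.196) and 4.92 ± 2.04 for Hk2 (adjusted p = 0.358), and none of the 8 genes tested was called, where 1.13% of 13329 genes were called. Ldha passed the threshold without the filter on low counts (adjusted p = 0.000659), without cells rich in Gcg, Sst, Ppy, Pyy or Prss2 (0.0270), a filter that does not read stromal, epsilon or ductal markers, and with cells thinned to 1 depth (0.0134), and missed it when a control was left out (0.121 to 0.312).

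Ldha was counted in 69 of 147 P3 beta cells, Slc16a1 in 22 and Hk2 in 16. Of the 147 cells 69 held none of these 3 genes, 57 held 1, 13 held 2 and 8 held all 3. The beta cells of P3 held more RNA of other cells than controls: the 6 stromal markers made 205 CPM at P3 and 0.148 to 3.90 CPM in controls, the 3 epsilon markers 533 CPM and 0 to 10.3 CPM, the 10 ductal markers 2076 CPM and 629 to 799 CPM, and the 14 acinar markers 38358 CPM and 10154 to 33256 CPM. In the 43 P3 beta cells with no UMI of a stromal marker Ldha stood at 7.32 CPM (16 UMIs) and Slc16a1 at 4.12 CPM (9 UMIs), and Hk2 was not counted. Only 3 of the 147 P3 beta cells had no UMI of the ductal markers Krt19, Sox9, Spp1 and Cftr. Ldha, Slc16a1 and Hk2 were not counted in these 3 cells, which are too few to give a level. In the 128 P3 beta cells whose leading hormone was insulin Ldha stood at 29.3 CPM (322 of the 516 UMIs), Slc16a1 at 4.64 CPM (51 of 75) and Hk2 at 3.00 CPM (33 of 78). The 11 ductal cells of the P3 library had 232 CPM of Ldha, 33.5 CPM of Slc16a1 and 45.7 CPM of Hk2. The part of other cells' RNA in the P3 levels was not tested. When beta cells were instead taken by leading hormone from all clusters, Ldha stood at 46.0 CPM at P3 and at 23.7, 25.4 and 0.728 CPM in controls. The difference was 0.78 (adjusted p = 1 in edgeR's quasi-likelihood test). That choice brings in 61 insulin-led cells of acinar, 25 of ductal and 9 of unnamed clusters in controls. In postnatal libraries it brings in 16 of ductal and 20 of unnamed clusters. At P3 128 of the 143 insulin-led cells were in the beta class.

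The promoters of these genes are shown because Ldha, Slc16a1 and Hk2 were high together at P3 and Pdk1 and Gpi1 after STZ, and because Ldha, Hk2 and Pdk1 are textbook targets of hypoxia-inducible factor. The sequences are the 250 bases before the transcription start in RefSeq's GRCm38.p6 annotation, 5′ to 3′ on the gene's strand. Capitals mark each match to ACGTG or its reverse complement CACGT, 1 form of the core of the factor's binding site. Where both overlap they form CACGTG, the E-box of other factors, and count as 2 matches. The windows are chr7:46845554-46845803 (+ strand) for Ldha, chr3:104638414-104638663 (+) for Slc16a1, chr6:82774455-82774704 (-) for Hk2, chr2:71872974-71873223 (+) for Pdk1 and chr7:34230337-34230586 (-) for Gpi1.
Ldha: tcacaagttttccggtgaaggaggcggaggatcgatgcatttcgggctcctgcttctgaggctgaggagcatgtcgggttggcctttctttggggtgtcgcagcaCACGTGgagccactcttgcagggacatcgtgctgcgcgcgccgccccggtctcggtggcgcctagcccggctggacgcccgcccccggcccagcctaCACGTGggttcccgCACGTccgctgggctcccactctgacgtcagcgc
Slc16a1: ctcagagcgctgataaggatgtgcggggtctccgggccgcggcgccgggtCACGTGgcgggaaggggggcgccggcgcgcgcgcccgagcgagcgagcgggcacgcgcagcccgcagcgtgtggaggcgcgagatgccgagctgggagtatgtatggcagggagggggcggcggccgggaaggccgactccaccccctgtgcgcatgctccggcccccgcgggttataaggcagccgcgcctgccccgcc
Hk2: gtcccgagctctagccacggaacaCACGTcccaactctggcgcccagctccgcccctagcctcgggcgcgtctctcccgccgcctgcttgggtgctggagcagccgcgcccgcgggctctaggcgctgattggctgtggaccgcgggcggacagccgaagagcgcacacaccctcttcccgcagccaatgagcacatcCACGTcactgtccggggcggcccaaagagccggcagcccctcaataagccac
Pdk1: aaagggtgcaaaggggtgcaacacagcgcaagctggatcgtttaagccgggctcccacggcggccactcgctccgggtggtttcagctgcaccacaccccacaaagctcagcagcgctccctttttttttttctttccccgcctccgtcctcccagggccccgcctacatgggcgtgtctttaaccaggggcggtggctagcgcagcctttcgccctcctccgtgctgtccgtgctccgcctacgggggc
Gpi1: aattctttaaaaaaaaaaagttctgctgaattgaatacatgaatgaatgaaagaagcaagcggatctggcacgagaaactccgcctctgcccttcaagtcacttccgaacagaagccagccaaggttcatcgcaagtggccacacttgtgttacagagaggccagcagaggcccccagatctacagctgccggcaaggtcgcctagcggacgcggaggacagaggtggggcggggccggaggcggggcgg
The Ldha window held 5 matches, including 2 E-boxes, that of Slc16a1 2 matches in 1 E-box, and that of Hk2 2 separate matches. The windows of Pdk1 and Gpi1 held no match to this form. The other form of the core, GCGTG or its reverse complement CACGC, was not searched or marked, and the printed Pdk1 and Slc16a1 windows hold it. RefSeq lists a second promoter for Ldha, Pdk1, Pdk2 and Hk1; these are not shown and held no match. Of the 13 promoters listed for the 9 genes 4 held a match, the other in Pdk2, and of all 32851 promoters of this length 16.6% did. A match is only a run of letters and shows no binding.

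Among the expressed genes, Ldhb was lower in postnatal than in adult beta cells by measured level, and Gpi1 and Pdk1 overlapped with adult levels. Ldhb measured 16 CPM at P3, 20.4 and 10.5 CPM at P12 and 42 CPM at P21, against 50.6, 46.0 and 55.3 CPM in controls, with no overlap. The share of all genes that separate these libraries is not given. Gpi1 measured 132 CPM at P3, 86.4 and 80.0 CPM at P12 and 96.7 CPM at P21, against 81.8, 76.8 and 72.9 CPM in controls. Pdk1 measured 39.9 CPM at P3, 22.1 and 34.9 CPM at P12 and 21.2 CPM at P21, against 20.8, 22.1 and 21.5 CPM in controls, with 3 of 4 postnatal libraries above all controls for each.

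Taking the 4 postnatal libraries as 1 group, 0 of the 5 genes tested was called, where 0.0406% of 12310 genes were called in edgeR's quasi-likelihood test and 1309 had an unadjusted p under 0.05. The difference was -1.34 ± 0.37 for Ldhb (adjusted p = 0.190), 0.18 ± 0.20 for Gpi1, 0.30 ± 0.29 for Pdk1, 0.30 ± 0.33 for Pdk2 and -0.46 ± 0.41 for Pfkp. Ldhb passed without P21 (-1.83, adjusted p = 0.0120) and with DESeq2 (adjusted p = 0.0324). With 1 library left out its adjusted p in edgeR's test ranged from 0.0120 to 0.533. Without the filter on low counts Ldha differed by 3.68 ± 0.91 (adjusted p = 0.00900), with most of its UMIs from P3. Pdk2 measured 33.3 CPM at P3, 15.9 and 21.1 CPM at P12 and 19.4 CPM at P21, against 18.2, 11.8 and 19.2 CPM in controls, and Pfkp 7.56, 8.22, 16.5 and 10.7 CPM in the same order, against 9.12, 15.6 and 15.4 CPM. No label gives the sequencing run of the postnatal libraries, so run and group cannot be told apart.

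None of the 5 lists had a called gene in the postnatal comparison. At P3 alone 18 of the 22 disallowed genes passed the filter of a fit that includes P3 and can admit a gene through its P3 counts alone. There 1.13% of 13329 genes were called, and 2 of the list were called higher, which is a description. Oat, a mitochondrial aminotransferase of ornithine, had 82.1 CPM at P3 and a median of 2.45 CPM in controls. Pcolce, a collagen-processing enhancer, had 28.4 CPM and a control median of 0.371 CPM. Lmo4, Mgst1, Zfp36l1, Tst and Ndrg2, which were not called and are named after their values were seen, measured 35.9, 30.5, 17.6, 13 and 10.9 CPM at P3, with control medians of 4.61, 1.46, 0.445, 1.46 and 0.366 CPM. The values of other cells' markers given for P3 apply to this list too, and their part was not tested. At P12, where 0.795% of all genes were called, 1 gene of the list rose, Oat, and at P21, where 0.00750% were, none did.

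The share of beta cells in which a gene was counted was compared after each cell was thinned to 30325 UMIs, which left out 31 shallower cells of STZ mice with implants, 39 of pups and 30 of controls. Pdk1 was counted in 59.3% ± 12.7 of STZ beta cells (SD over 8 libraries) and 26.4% ± 9.29 of control beta cells (3 libraries), with no overlap, and the exact two-sided permutation test gave p = 0.00606, the smallest that the 165 arrangements allow. Without thinning the shares were 65.1% and 39.4%, and the groups overlapped (exact permutation p = 0.0303). Ldhb was counted in 35.7% ± 11.7 of STZ beta cells and 58.4% ± 12.3 of control beta cells (exact permutation p = 0.0303), or 42.4% and 64.0% without thinning, with no overlap (exact permutation p = 0.00606). Gpi1 was counted in 89.1% ± 6.89 of STZ beta cells and 80.1% ± 2.55 of control ones (exact permutation p = 0.0727). The Ldha shares were 2.61% and 2.03% (exact permutation p = 0.873). Each of the 9 genes was tested so in both comparisons, and these p-values carry no adjustment.

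In pups Ldhb was counted in 24.1% ± 8.18 of thinned beta cells (SD, 4 libraries), against 58.4% ± 12.3 in controls, with no overlap and an exact permutation p of 0.0286, the smallest that 35 arrangements allow. Ldha was counted in 36 of 132 thinned P3 beta cells, or 27.3% (95% exact binomial interval 19.9 to 35.7%, which covers the sampling of cells of 1 library and no spread between libraries), against 0.538, 0 and 5.56% in controls. At P12 it was counted in 0 of 57 cells, with an exact 95% upper limit of 6.27% on cells with a UMI, and in 2 of 59, and at P21 in 1 of 89. Over the 4 postnatal libraries the Ldha shares did not separate from those of controls (exact permutation p = 0.80).

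**Figure D4:**
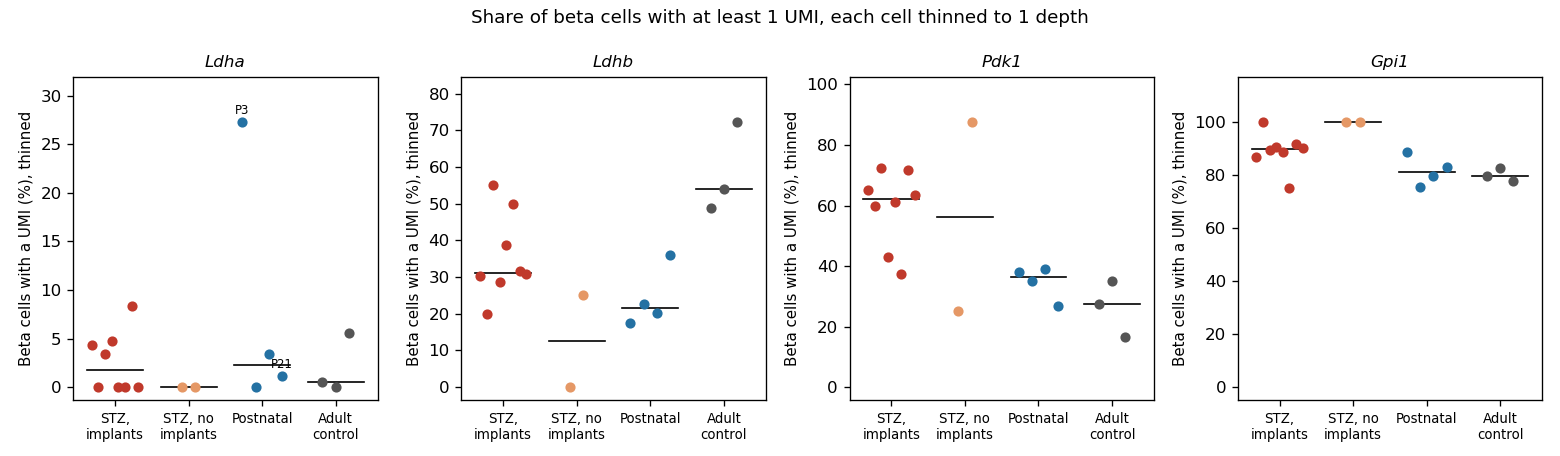
Percent of beta cells with at least 1 UMI of Ldha, Ldhb, Pdk1 and Gpi1 after thinning each cell to 30325 UMIs, for STZ with implants (8 libraries), STZ without implants (2), postnatal (4) and adult control (3); each point is a library and each black bar the median. Pdk1 shares of STZ libraries with implants lie above those of controls, Ldhb shares of pups lie below them, and P3 stands apart for Ldha at 27.3%.

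Alpha cells of the same mice were examined in the 8 STZ libraries with implants and the 2 controls with at least 10 alpha cells. Gpi1 measured 46.5 to 102 CPM in STZ alpha cells, with a median of 62.7 CPM, against 80.6 and 54.6 CPM in control alpha cells, and the groups overlapped. Pdk1 measured 12.4 to 40.4 CPM in STZ alpha cells, with a median of 31.1 CPM, against 15.4 and 17.6 CPM in control ones. Hk1, which alpha cells do express, measured 2.54 to 25.1 CPM after STZ, with a median of 15.2 CPM, against 31.4 and 8.22 CPM. Ldha measured 0 to 4.48 CPM, with a median of 2.03 CPM, against 0.587 and 0.615 CPM.

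None of the 6 genes tested was called in alpha cells of STZ mice, where 0% of 10673 genes were called by edgeR's quasi-likelihood test, 364 had an unadjusted p under 0.05 and DESeq2 called 1. The difference was -0.03 ± 0.29 for Gpi1, 0.78 ± 0.43 for Pdk1, 0.82 ± 0.67 for Pdk2, -0.33 ± 0.58 for Hk1, -0.36 ± 0.63 for Ldhb and -1.05 ± 0.46 for Pfkp. The sign for Gpi1, Hk1 and Ldhb turned when a library was left out. Whether beta and alpha cells responded differently was tested in the 7 STZ and 2 control libraries that held both. The response of Gpi1 was larger in beta cells by 1.52 ± 0.34 (adjusted p = 0.0783), where 0.309% of 11669 genes were called and 0 of the 6 genes tested, and the adjusted p was 0.0379 to 1 with 1 library left out, lowest without month 9. For Pdk1 the responses differed by 0.76 ± 0.39 (adjusted p = 0.803) and for Pfkp by 1.57 ± 0.56 (adjusted p = 0.478).

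Of the pups, P21 alone gave enough alpha cells (79). They had 13 CPM of Ldha, against 0.587 and 0.615 CPM in control alpha cells, 111 CPM of Gpi1 against 80.6 and 54.6 CPM, and 44.4 CPM of Pdk1 against 15.4 and 17.6 CPM. None of the 7 genes tested was called in this contrast of 1 library against 2, where 0.595% of 10750 genes were called, and for Ldha the difference was 4.09 ± 2.07 (adjusted p = 1.00).

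Between endocrine types, in libraries mostly of STZ mice, beta cells had more Gpi1, Pdk1 and Pdk2 than alpha cells and less Hk1. Cells were taken here by their leading hormone alone, which uses none of the 9 genes, in 8 libraries (7 STZ with implants and 1 control) with at least 10 cells of both types. Gpi1 measured 62.8 to 321 CPM in beta cells and 53.5 to 106 CPM in alpha cells, with a difference of 1.34 ± 0.17 within libraries (adjusted p = 4.89e-05). Pdk1 measured 20.2 to 80.6 CPM in beta cells and 14 to 41.2 CPM in alpha cells (1.27 ± 0.21, adjusted p = 0.000458). Pdk2 measured 11.1 to 26.7 CPM in beta cells and 2.24 to 18.0 CPM in alpha cells (1.15 ± 0.36, adjusted p = 0.0347).

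Hk1 had 10 UMIs among 32674296 in beta cells and 217 among 13201247 in alpha cells, a ratio of alpha to beta of 53.7 with a counting interval of 28.7 to 114 (adjusted p = 0.000139 within libraries). Cells whose cluster matched their hormone had no Hk1 UMI in beta cells of 7 libraries, with 195 UMIs among 11018329 in alpha cells against 0 among 20892111 in beta cells, and the lower 95% counting limit of the ratio was 99.3. Ldha did not pass, with 0 to 32.2 CPM in beta cells and 0 to 24.3 CPM in alpha cells, nor did Ldhb, Pfkp and Hk2. Leading hormone alone also takes in insulin-led cells of acinar, ductal and unnamed clusters. With cells taken by cluster, these libraries held 0 to 5.20 CPM of Ldha in beta cells and 0 to 4.48 CPM in alpha cells. Of 8 genes tested 4 were called, where 18.4% of 11876 genes were. In cells taken by cluster Gpi1 measured 81.8 and 76.8 CPM in beta cells and 80.6 and 54.6 CPM in alpha cells of controls 1 and 2.

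Of 26 genes of the glycolysis list tested 9 were higher and 2 lower in beta cells, with a median of 0.37 against 0.032 over all genes. In this contrast 18.4% of 11876 genes were called, and the counts of the disallowed, shuttle and hypoxia lists lay near that share. Slc2a2 (4.63 ± 0.47), Eno1 (1.40 ± 0.20), Pkm (1.40 ± 0.16), Pgk1 (1.35 ± 0.32) and Bpgm (1.18 ± 0.32) were higher, next to Gpi1, and Hk1 was lower. Of 24 genes of pyruvate and lactate handling 9 were higher and 2 lower, with Me3 (2.29 ± 0.41), Pcx (2.04 ± 0.37), Pdk3 (1.59 ± 0.39), Emb (0.99 ± 0.16) and Pdhb (0.67 ± 0.15) higher beside Pdk1 and Pdk2, and Pdk4 (-4.31 ± 0.51) and Fbp1 (-2.52 ± 0.64) lower. Of 14 disallowed genes tested Hk1 and Oat (-3.02 ± 0.21) were lower and none higher. Mdh1 (1.07 ± 0.14) was higher among the 9 shuttle genes. Of 22 targets of hypoxia-inducible factor, Pgk1 and Ero1l (0.65 ± 0.19) were higher and Higd1a (-3.90 ± 0.25), Hif1a (-1.10 ± 0.21) and Ndrg1 (-0.64 ± 0.21) lower.

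Against PP cells, in 5 STZ libraries, Gpi1 measured 146, 231, 154, 171 and 321 CPM in beta cells (day 6, day 12 replicates 1 and 2, day 30 and day 42) and 79.0, 86.9, 144, 93.5 and 103 CPM in PP cells, higher in beta cells of each library. The difference was 0.73 ± 0.21 (adjusted p = 0.0447, or 0.0502 with DESeq2's size factors). Hk1 had no UMI in these beta cells and 3.53 to 16.2 CPM in PP cells, 44 UMIs among 4695961 in PP cells against 0 among 6995544 in beta cells (adjusted p = 0.0150), with a lower 95% counting limit of 17 for the ratio. Pdk1 measured 47.8 to 80.6 CPM in beta cells and 1.92 to 38.1 CPM in PP cells (1.19 ± 0.42, adjusted p = 0.108). Of 7 genes tested 2 were called, where 8.10% of 9734 genes were.

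Of the lists, Slc2a2 (4.06 ± 0.53), Eno1 (1.54 ± 0.26) and Pkm (1.3 ± 0.22) were also higher in beta than in PP cells, as were Me3 (2.63 ± 0.63), Emb (0.92 ± 0.20), Gpd2 (1.06 ± 0.27) and Mdh1 (0.91 ± 0.19). Pdk4 (-3.60 ± 0.71), Me1 (-1.3 ± 0.32), Lmo4 (-2.60 ± 0.55), Mgst1 (-2.42 ± 0.52), Oat (-1.89 ± 0.41) and Ndrg1 (-1.12 ± 0.24) were lower. Against delta cells only 2 libraries, day 12 replicate 1 and day 42, could be used, and 2 of the 9 genes were tested. Gpi1 measured 231 and 321 CPM in beta cells and 73.8 and 88.0 CPM in delta cells (1.81 ± 0.32, adjusted p = 0.0141), where 3.70% of 6186 genes were called, and Pdk1 76.4 and 80.6 CPM against 14.2 and 24.2 CPM (2.06 ± 0.57, adjusted p = 0.0803).

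**Figure D5:**
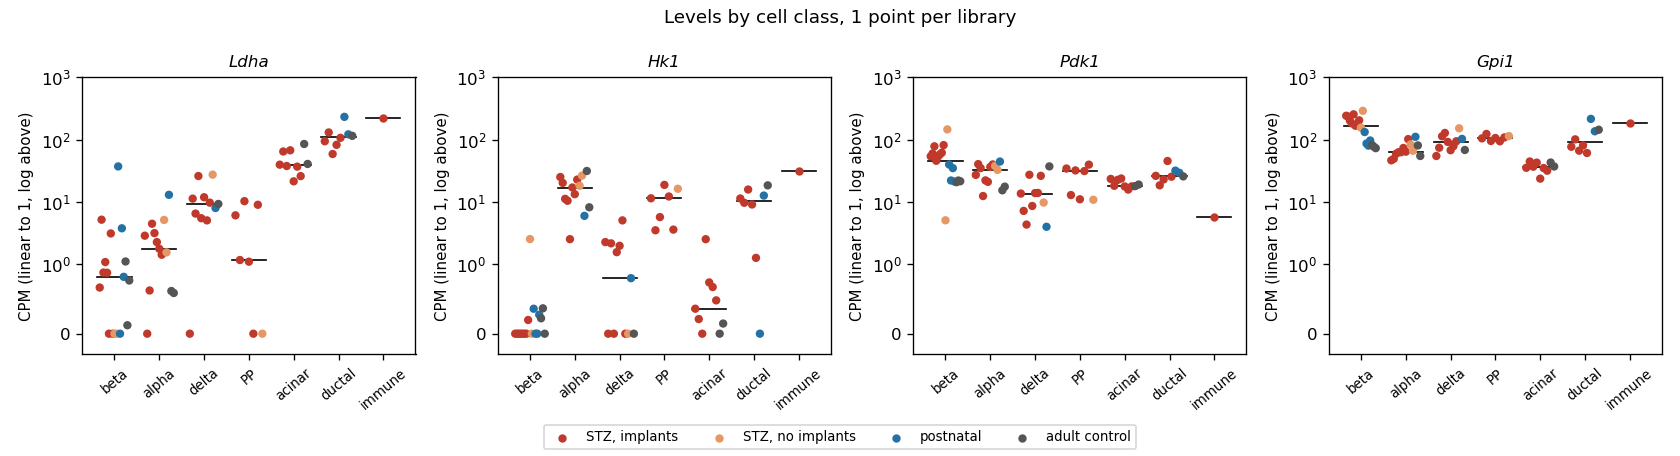
Ldha, Hk1, Pdk1 and Gpi1 in CPM by cell class (linear up to 1 CPM, log scale above), each point a library with at least 10 cells of the class (all libraries for beta cells) coloured by group, and each black bar the median over libraries. Ldha is near or below 1 CPM in most beta sums and at 224 CPM in the single immune sum, and Hk1 is at or near 0 in beta sums and between 2.54 and 31.4 CPM in alpha sums.

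Across all classes of STZ mice with implants, the order of Ldha by median was immune (224 CPM, 1 library), ductal (94.1 CPM, 58.8 to 130), acinar (37.7 CPM, 21.4 to 67.4), delta (8.14 CPM, 0 to 26.1), PP (3.64 CPM, 0 to 10.3), alpha (2.03 CPM, 0 to 4.48) and beta (0.881 CPM, 0 to 5.20). The ranges of the 4 endocrine types overlap, as do those of acinar and ductal cells, and no endocrine range reaches the ductal one. Hk2 followed a like order, with 37.3 CPM in ductal and 11.8 CPM in acinar cells and medians of 0 to 0.518 CPM in endocrine types. For Gpi1 beta cells (202 CPM, 167 to 254) lay above PP (105 CPM), delta (85.2 CPM), ductal (76.7 CPM), alpha (62.7 CPM) and acinar cells (35.3 CPM), with no overlap, and the single immune sum, at 187 CPM, lay within their range. Hk1 had medians of 15.2 CPM in alpha, 9.72 CPM in ductal, 8.59 CPM in PP and 1.78 CPM in delta cells.

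The genes most like 4 of the members over the 17 beta-cell sums were sought by Pearson's r of log2 CPM among 13329 genes, as a description, since the sums share libraries and cell clusters. Ldha was most like Homer2 (r = 0.92), Rgs5 (0.91) and Mboat1 (0.90), with the P3 library at the far end. Gpi1 was most like Sorcs2 (0.94), Prdx4 (0.93) and Chgb (0.92), Pdk1 like Pqlc3 (0.90), Cd151 (0.90) and Npr2 (0.89), and Ldhb like Mat1a (0.89), Eif4a2 (0.75) and Prlr (0.74).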

How the data were processed

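UMI counts per gene and single cell were deposited by the authors, made per the submitters' processing notes with UMI-tools 0.5.0, TopHat2 2.1.0, SAMtools 1.3.1 and featureCounts 1.5.3, with mm10 as build. Per the labels' protocols, cDNA went through 18 and 4 PCR cycles and cells were kept by qPCR of Gapdh, itself a glycolysis gene. All 2999 cells (7751 to 645830 UMIs) were used and no doublet caller was run. Cells were clustered without the 9 genes (300 variable genes, 15 components, 20 neighbours, Leiden resolution 0.8, and 0.35 within unnamed clusters of at least 100 cells, both chosen after seeing the clusters; leidenalg 0.10.2, scikit-learn 1.9.0) and named by markers. UMIs were summed per library and class and compared with edgeR 4.0.16 in R 4.3.3 (TMM, filterByExpr, quasi-likelihood F test, Benjamini-Hochberg adjustment over all genes tested, called under 0.05), a script tested on simulated data. SE is the log2 difference over the root of F. Cells rich in other markers had 1000 per 100000 UMIs of Gcg, Sst, Ppy, Pyy or Prss2. A leading hormone had 5 times the next. The members and gene lists were chosen with earlier results of these data known. All 9 members were named, and of other list genes up to 8 called ones per list, by adjusted p. Replicate libraries differed by more than counting noise (chi-square per degree of freedom 10.1 to 22.8). Alternatives covered DESeq2 1.42.0, scaling, filter, batch number as block, cell choice, depth and each library left out. A gene of the glycolysis list is counted there but not reported here by name.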

Additional observations from a re-analysis of the deposited data

Results flagged for a closer look

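A library apart from the rest of its group was looked for in 27 sets of 4 or 8 libraries (9 genes in STZ beta cells, postnatal beta cells and STZ alpha cells) by the gap of the outermost library to its nearest neighbour over the whole range, and 5 sets had one. For values without ties chance gives about 1 in 20, and a set with 1 library above 0 and all others at 0 always shows such a gap, as Hk1 in STZ beta cells and Hk2 in postnatal ones do.

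At P3, beta cells had 37.2 CPM of Ldha (516 UMIs), and the next postnatal library 3.79 CPM. Slc16a1 stood at 5.40 CPM (75 UMIs) in the same P3 sum, with 0.273 CPM next. Hk2 stood at 5.62 CPM (78 UMIs) there, with 0 CPM in the other postnatal libraries. In STZ beta cells Hk1 was counted at month 9 only, at 0.197 CPM, which is 1 UMI. In STZ alpha cells Hk2 stood at 3.48 CPM at day 30 (7 UMIs), with 0.892 CPM next.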

How the results depend on the processing

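Depth limits Ldha, Slc16a1, Hk1 and Hk2, which hold 0 to 16 UMIs in most beta sums, and group size limits every contrast of 1 library. Scaling by DESeq2's size factors changed 1 member call (beta against PP, 1 member called in place of 2). In STZ beta cells 297 genes were called, 502 by DESeq2, 523 with no filter, 98 with the batch number as a replicate block, 105 by leading hormone and 115 to 411 with 1 library left out; members called were 3 (2 to 3 with 1 library left out). The block left Ldhb at an adjusted p of 0.219. In the groups with replicates, same-numbered libraries did not deviate together (correlations -0.023 to 0.071). This check includes sums of few beta cells and cannot tell whether equal numbers share a day or animal. Among libraries of the shared sequencing run 13 genes and 0 members were called. Restricting to cells of that run (7 genes, 0 members) and to libraries outside it (171 genes) was chosen after seeing the data. Pdk2 ranged from -0.11 to 0.26 with 1 library left out and was -0.096 outside the run, and Pfkp turned to -0.28 in cells of the run. In postnatal beta cells 5 genes were called, 236 by DESeq2 (1 member), 404 with no filter (2 members), 0 with the block, 44 thinned, 20 by leading hormone, 71 without the P3 cluster and 0 to 160 with 1 library left out (0 to 1 member). Over single groups 3 member calls became 10 with no filter, 0 with any control left out and, chosen after seeing the data, 0 by leading hormone and 11 thinned. P12 Gpi1 ranged from -0.022 to 0.068 with 1 control left out and turned to -0.072 without rich cells, -0.051 by leading hormone and -0.14 thinned, and P3 Hk2 to -0.78 by leading hormone. In alpha cells DESeq2 called 1 gene after STZ and 15 at P21 in place of 64; Ldhb turned to 0.25 with the block, and with 1 library left out Ldhb ranged from -1.08 to 1.14, Hk1 from -0.97 to 0.84 and Gpi1 from -0.24 to 0.21. For P21 alpha cells no control could be left out and no block fitted. The beta minus alpha response called 3 to 41 genes and 0 to 1 member with 1 library left out, Ldhb from -2.32 to 0.088 and Pdk2 from -1.19 to 0.18. Beta against alpha called 3596 genes by cluster (2187 by hormone), and beta against delta 85 within matching clusters (229 otherwise), the last chosen after seeing the data. The causes of these changes were not tested.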

Other observations

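Outside the endocrine types, the members varied widely between libraries of acinar and ductal cells, and no test was made of these values. Hk2 measured 2.40 to 52.4 CPM in acinar cells of 7 STZ libraries with implants, with a median of 11.8 CPM, against 19.9 and 1.32 CPM in 2 control libraries, and the groups overlapped. In ductal cells Hk2 measured 5.09 to 78.2 CPM in 5 STZ libraries, with a median of 37.3 CPM, and 45.7 and 0 CPM at P3 and P21, against 0 CPM in the 1 control library with enough ductal cells. Ldhb in ductal cells measured 13.4 to 75.0 CPM after STZ and 146 and 122 CPM at P3 and P21, against 47.4 CPM in the control, so that both postnatal libraries lay above the others. Gpi1 in ductal cells measured 61.0 to 101 CPM after STZ and 215 and 136 CPM at P3 and P21, against 144 CPM in the control. In acinar cells Pdk1 measured 15.8 to 23.8 CPM after STZ, against 17.9 and 19.0 CPM in controls.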
